A study of Mus musculus with 34 samples.

Results

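The genes described here encode 7 transcription factors of effector T cells: Irf4, Batf, Jun, Jund, Fosl2, Bhlhe40 and Nfil3. They were chosen by name and not by a rule on their measured values, though with earlier results of these data known. They are 7 of 27179 gene identifiers in the count tables. All 7 passed the filter on low counts, which left 11357 genes for testing. The study counted RNA in 34 libraries made with a 3′ kit. The cells were naive CD4 T cells (strain C57BL/6), activated in culture by antibodies against CD3 and CD28 bound to the plate, and sorted before RNA was extracted. Every library carries a label made of a culture code and a number, and the 6 groups are called by these labels. The groups are Tfh2_1e4 (6 libraries), Tfh2_2e4 (5), Tfh2_4e4 (6), Tfh2_6e4 (6), Tfh5_4e4 (6) and TfhA_4e4 (5). No genotype is named in the labels, and they leave unsaid which additions a code means, what the number counts and how the sort was gated. The title of the series is about TGF-beta, c-Maf and the fates of follicular helper and TH17 cells, to which no label links a code or a number.

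IRF4 and BATF are switched on when a T cell recognises antigen, and bind DNA together at composite sites where BATF pairs with a JUN family protein and IRF4 sits beside it. Such complexes are among the first to occupy closed chromatin in activated T cells and are needed for TH17 and follicular helper cells to form. JUN and JUND are leucine zipper proteins that pair with FOS, BATF or ATF partners to make AP-1. FOSL2 is a FOS family partner that has been described as a brake on TH17 genes, while BHLHE40, a helix-loop-helix protein, and NFIL3, a leucine zipper protein, act largely as repressors and have been tied to cytokine genes such as Il10.

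The genes lie at separate loci. In RefSeq coordinates on GRCm38.p6, Irf4 (identifier 16364) is at chr13:30749233-30766981, Batf (53314) at chr12:85686720-85709087, Jun (16476) at chr4:95049036-95052222 and Jund (16478) at chr8:70697739-70700616. Fosl2 (14284) is at chr5:32136472-32157840, Bhlhe40 (20893) at chr6:108660629-108666925 and Nfil3 (18030) at chr13:52967209-52982878. Jun and Jund each have a single exon in the GENCODE M21 annotation, whereas Irf4 has up to 9. Genes on the opposite strand overlap Jun (Junos), Jund (Gm11175) and Bhlhe40 (0610040F04Rik), and since the strand setting of the counting is not given in the sources used here, reads of such pairs cannot be told apart. Only 0610040F04Rik had counts of its own, 47 over all libraries against 23220 for Bhlhe40.

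Sequence upstream of Jun, Irf4 and Nfil3 is shown because Jun and Irf4 set the TfhA libraries apart most clearly and Nfil3 changed most along the Tfh2 numbers. The stretches come from RefSeq on GRCm38.p6, read 5′ to 3′ on the strand of the gene, and leave out bases that lie in an annotated exon. Of 9 motifs searched on both strands, capitals mark a match to any but the hypoxia response core ACGTG, which had no match in these stretches. In Jun (chr4:95052223-95052472, minus strand) they mark TGACATCA, a form of AP-1 site that was found 45 to 38 bases before the start. In Irf4 (chr13:30748983-30749225, plus strand) they mark TGTCTG, the reverse complement of the CAGACA box bound by SMAD proteins, 192 to 187 bases before the start. The Nfil3 stretch (chr13:52981074-52981289, minus strand) lies before the transcript start used by the table, inside the gene's full span, and held none of the motifs.
Jun: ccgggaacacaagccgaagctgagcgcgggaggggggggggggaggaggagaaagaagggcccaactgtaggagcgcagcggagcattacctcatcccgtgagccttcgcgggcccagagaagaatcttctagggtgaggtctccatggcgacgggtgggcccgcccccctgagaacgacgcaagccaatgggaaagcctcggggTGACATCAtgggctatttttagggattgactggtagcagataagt
Irf4: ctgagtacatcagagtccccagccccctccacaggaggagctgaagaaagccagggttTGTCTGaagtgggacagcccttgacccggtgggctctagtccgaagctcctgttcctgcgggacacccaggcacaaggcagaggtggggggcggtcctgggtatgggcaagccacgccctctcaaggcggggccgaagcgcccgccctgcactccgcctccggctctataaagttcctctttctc
Nfil3: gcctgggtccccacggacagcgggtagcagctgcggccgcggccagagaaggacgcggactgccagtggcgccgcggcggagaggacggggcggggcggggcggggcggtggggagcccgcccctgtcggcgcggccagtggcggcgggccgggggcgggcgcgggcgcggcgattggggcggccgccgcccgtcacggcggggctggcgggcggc
A match describes these letters and not binding. TGACATCA was found in 2.93% and CAGACA in 17.1% of 32851 windows of the 250 bases before a gene's start. The table held 6 of the 7 genes and not Bhlhe40. TGAGTCA, the usual AP-1 site, was in none of the 6 windows and in 4.46% of all windows, and the cyclic AMP response element TGACGTCA was in none of the 6 and in 1.55% of all. The interferon response element, a site bound by IRF proteins, was found in Fosl2 alone and in 2.98% of all windows, and ACGTG, the core of hypoxia response elements, in Jund alone, where 2 matches stood, and in 16.6% of all. CACGTG, the E-box bound by helix-loop-helix proteins such as BHLHE40, was in none of the 6 and in 6.02% of all. The NFIL3 site TTACGTAA (0.113% of all windows) and the SMAD box GTCTAGAC (0.167%) were also in none of the 6. Of the motifs searched, ACGTG is part of CACGTG, so that a window with the longer one is also counted for the shorter.

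Total counts per library were 4481509 to 9934245, of which 39.17% to 53.81% fell on 2 identifiers without a symbol. The T cell markers fixed for the check (Cd3e, Cd3d, Cd3g, Cd4, Trac, Trbc1, Cd28 and Cd5) were present in all groups, at a summed level of 1449 to 1584 CPM per library in TfhA_4e4, 1466 to 1742 in Tfh2_1e4 and 1814 to 2241 in the other 4 groups. Defining markers of B cells, myeloid cells and erythroid cells did not pass the filter in any case (0 of 5, 0 of 6 and 0 of 3). Of the other lists, 1 of 2 CD8 T cell markers (Cd8b1), 1 of 5 dendritic cell markers (Xcr1) and 1 of 3 NK cell markers (Klrk1) passed. Cd8b1 was counted in all 34 libraries, at 3.846 to 14.92 CPM, and Cd8a had 19 counts in 6 libraries. CPM are counts scaled to a common library size after edgeR's TMM normalization. Tfh2_4e4 replicate 3 and Tfh2_2e4 replicate 6 stood apart from their groups in earlier results of these data, and results that rest on them are also given without them. The mitochondrial rRNA genes took 12.61% to 17.32% of the counts outside those 2 identifiers in TfhA_4e4 and 5.785% to 11.49% in the other groups.

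Irf4 had the highest mean of the 7 genes in each of the 6 groups. Batf had the lowest in 4 of them, and in Tfh2_1e4 and Tfh2_2e4 Nfil3 was lower still (15.4 against 31.6 CPM and 32.7 against 35.0 CPM). The mean of all 6 group means was 374 CPM for Irf4, 154 for Fosl2, 105 for Jun, 90.2 for Bhlhe40, 85.1 for Jund, 62.0 for Nfil3 and 28.9 for Batf. In a 3′ library each transcript gives about 1 site to count, so these levels do not scale with transcript length. Of 11357 tested genes Irf4 ranked 142nd and Batf 3333rd by mean level. The groups differed in 6 of the 7 genes by edgeR's test over all 6 groups, at an adjusted p under 0.05, which 56.4% of all tested genes also passed. Bhlhe40 did not pass (edgeR adjusted p = 0.244). Differences between groups made up 96.9% of the variance of log2 levels over libraries for Nfil3, 94.0% for Irf4, 91.8% for Fosl2 and 90.3% for Jun, against 62.0% for Jund, 35.3% for Batf and 15.8% for Bhlhe40. The highest group mean was 7.19 times the lowest for Nfil3, 4.05 times for Fosl2, 3.48 times for Jun and 2.74 times for Irf4, and 1.36 to 1.46 times for the other 3. Fewer cells of a type and less RNA per cell cannot be told apart in such bulk samples.

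**Figure D1:**
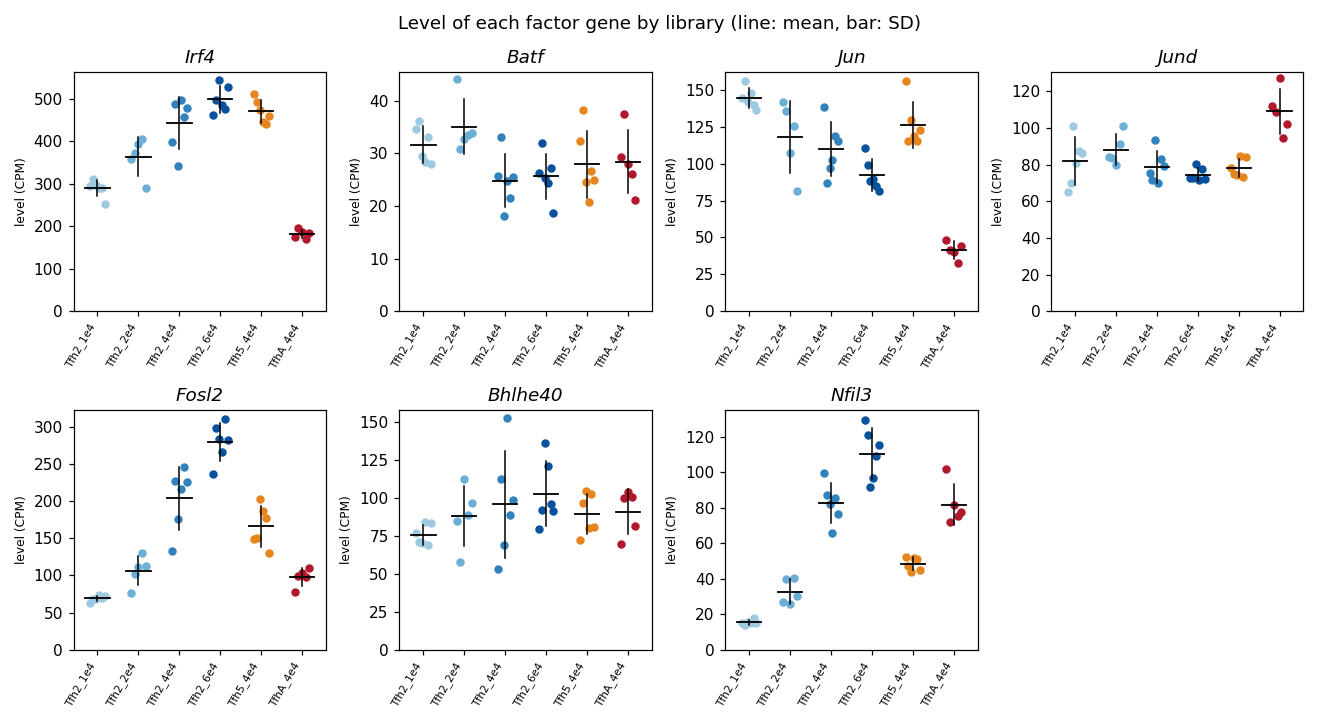
Level of each of the 7 genes in each of the 34 libraries (y axis, CPM from 0) by group (x axis), 1 point per library, with the group mean as a line and the SD as a bar. The 5 TfhA_4e4 libraries lie at 170 to 195 CPM for Irf4 and 32.6 to 48.3 for Jun, under every other library, and Nfil3 climbs from 13.8 to 18.1 CPM at 1e4 to 91.8 to 129 at 6e4.

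TfhA_4e4 was separated from Tfh2_4e4 by less Irf4, Jun and Fosl2 and more Jund, while the Batf, Bhlhe40 and Nfil3 tests did not pass. This made 1 gene higher and 3 lower of 7, where 32.8% of all tested genes passed in either direction, 15.5% higher and 17.4% lower. Tfh5_4e4 differed from Tfh2_4e4 in 1 of the 7 genes, Nfil3, which was lower, where 3.11% of all genes passed and 1.7% passed as lower. Between TfhA_4e4 and Tfh5_4e4 2 genes were higher in TfhA_4e4 (Jund and Nfil3) and 3 lower (Irf4, Jun and Fosl2), where 39.5% of all genes passed, 19.1% as higher and 20.4% as lower. Since each group enters 2 of these comparisons, they are not independent of one another. In Irf4 and Jun all 5 TfhA_4e4 libraries lay below all 29 other libraries, which held for 4.26% of tested genes, and in no member did they lie above all others (4.65% of tested genes). Klrk1, a receptor gene of NK and activated T cells, was also higher in TfhA_4e4, where the summed level of 3 NK cell markers was 5.181 to 7.788 CPM against 0 to 1.642 CPM in the other groups. Ncr1, which defines NK cells, was at 0 in all libraries, and the mitochondrial rRNA share was higher in every TfhA_4e4 library than in any other. The summed T cell markers were lower in TfhA_4e4 (1449 to 1584 CPM) than in Tfh2_4e4 (1823 to 2133 CPM) without overlap, with 0 of 8 markers called higher and 4 lower (median -0.34). The part of these in the differences was not tested. Irf4, Jun, Jund and Fosl2 kept their calls in the fits with the rRNA share as a covariate. Since that share did not overlap between TfhA_4e4 and the other groups, such fits cannot tell the share and the group apart.

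**Figure D2:**
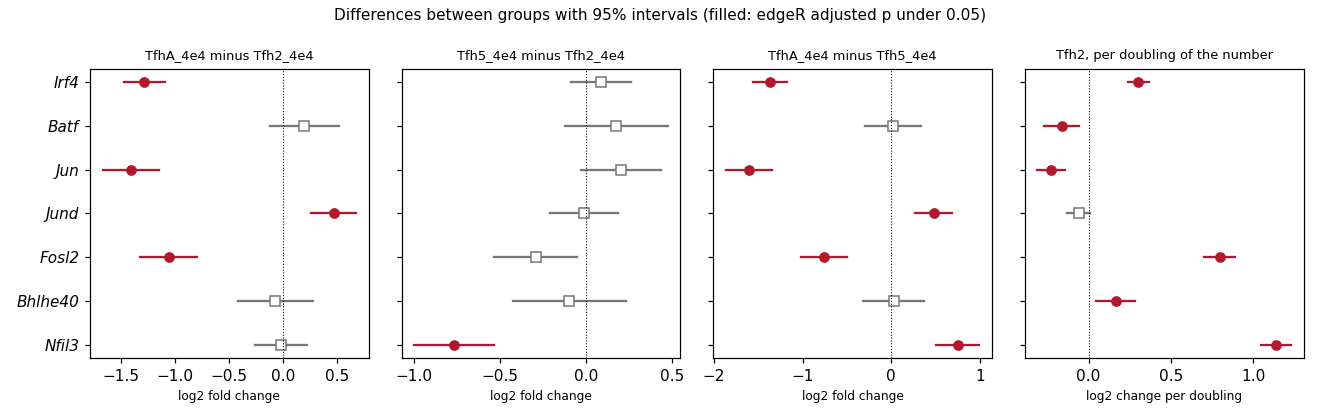
Difference of each gene (y axis) in 4 comparisons (panels), on the log2 scale (x axis, each panel with its own range), with the 95% interval; filled points passed at an edgeR adjusted p under 0.05. Irf4, Jun and Fosl2 lie left of 0 in both TfhA panels, Jund lies right of 0, and Nfil3 alone is filled in the panel of Tfh5_4e4 against Tfh2_4e4.

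Irf4, whose protein level is known to be graded by the strength of T cell receptor signals, was lowest in TfhA_4e4 and rose with the number in Tfh2. The 5 TfhA_4e4 libraries held 175.5, 194.8, 185.8, 170 and 184.3 CPM. The Tfh2_4e4 libraries held 396.8, 486.9, 341.5, 496.3, 457.5 and 477.1 CPM, and those of Tfh5_4e4 ran from 440 over a median of 467 to 509.5 CPM. TfhA_4e4 did not overlap either group, and the ranges of Tfh2_4e4 and Tfh5_4e4 overlapped. Irf4 was lower in TfhA_4e4 than in Tfh2_4e4 by a log2 fold change of -1.28 (SE 0.094, edgeR adjusted p = 2.88e-15, 5 of 5 libraries) and than in Tfh5_4e4 by -1.37 (SE 0.095, edgeR adjusted p = 2.71e-16). Tfh5_4e4 and Tfh2_4e4 differed by 0.09 (95% interval -0.09 to 0.27, edgeR adjusted p = 0.723).

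Along the Tfh2 numbers the mean of Irf4 was 289 ± 19.4 CPM (SD, n = 6) at 1e4, 364 ± 45.0 (n = 5) at 2e4, 443 ± 61.0 (n = 6) at 4e4 and 498 ± 31.7 (n = 6) at 6e4. The ranges at 1e4 (253.3 to 311.1 CPM) and 6e4 (461.5 to 543.9 CPM) were apart and neighbouring ranges overlapped. The rise in log2 level per doubling of the number was 0.30 (SE 0.032, edgeR adjusted p = 6.62e-11). The steps from 1e4 to 2e4 (0.33, edgeR adjusted p = 0.0205) and from 2e4 to 4e4 (0.28, edgeR adjusted p = 0.0304) passed and the step to 6e4 did not (0.17, edgeR adjusted p = 0.42). The step from 2e4 to 4e4 was 0.25 (edgeR adjusted p = 0.056) without Tfh2_4e4 replicate 3 and Tfh2_2e4 replicate 6. It also lost its call without any 1 of Tfh2_2e4 replicates 1 and 6, Tfh2_4e4 replicates 2, 4, 5 and 6, Tfh2_6e4 replicate 3, Tfh5_4e4 replicate 4 and TfhA_4e4 replicates 2 and 5 (0.19 to 0.27, edgeR adjusted p = 0.0514 to 0.212), and that from 1e4 to 2e4 lost its call without Tfh2_1e4 replicate 6, Tfh2_2e4 replicate 4 or Tfh2_2e4 replicate 5 (edgeR adjusted p = 0.0619 to 0.0773). Ordered from low to high, TfhA_4e4 stood under Tfh2_1e4 (edgeR adjusted p = 7.82e-08), and above Tfh2_4e4 neither Tfh5_4e4 over Tfh2_4e4 (0.09) nor Tfh2_6e4 over Tfh5_4e4 (0.08, edgeR adjusted p = 0.645) passed.

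Batf differed little between groups and its libraries scattered widely. In TfhA_4e4 they held 29.24, 37.51, 28.01, 26 and 21.16 CPM, and in Tfh2_2e4 44.16, 30.77, 32.78, 33.49 and 33.94 CPM. The range was 27.9 to 36.2 CPM in Tfh2_1e4 (median 31.3), 18.2 to 33.1 in Tfh2_4e4 (median 25.1), 18.8 to 31.9 in Tfh2_6e4 (median 25.8) and 20.7 to 38.2 in Tfh5_4e4 (median 25.9). All 6 ranges overlapped, and the lowest Tfh2_2e4 library stood above the medians of the 4e4 and 6e4 groups. Batf had 90 to 369 counts per library, which gives a counting error of 5.75% to 8.14% of the level on average by group, against an observed spread of 11.2% to 22.6%. None of the 5 pairs of neighbours in the order of levels passed.

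With each doubling of the Tfh2 number Batf fell by 0.16 (SE 0.053, edgeR adjusted p = 0.00993), with means of 31.6, 35.0, 24.8 and 25.7 CPM. Only the step from 2e4 to 4e4 passed (-0.50, edgeR adjusted p = 0.0238). It was -0.46 and did not pass (edgeR adjusted p = 0.0753) without the 2 libraries that stood apart, nor did it pass without Tfh2_2e4 replicate 1 (-0.41, edgeR adjusted p = 0.108), Tfh2_4e4 replicate 3 (-0.43, edgeR adjusted p = 0.0682) or Tfh2_4e4 replicate 5 (-0.46, edgeR adjusted p = 0.0608). TfhA_4e4 and Tfh2_4e4 differed by 0.19 (95% interval -0.12 to 0.51, edgeR adjusted p = 0.37). With the mitochondrial rRNA share as a covariate that difference was 0.71 and passed (edgeR adjusted p = 0.0117), and the slope was -0.09 and did not (edgeR adjusted p = 0.138); the part of that share in the result was not tested.

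Among the 7 genes Jun had the largest log2 difference of TfhA_4e4 to both other 4e4 groups and to Tfh2_2e4, whereas Nfil3 differed more against Tfh2_1e4 (2.41, and -1.80 for Jun) and Fosl2 and Irf4 more against Tfh2_6e4 (-1.51 and -1.45, and -1.16 for Jun). The TfhA_4e4 libraries held 48.34, 41.86, 40.11, 32.59 and 44.43 CPM, while those of Tfh2_4e4 held 138.3, 87.1, 97.09, 102.4, 118.6 and 114.9 CPM and those of Tfh5_4e4 115 to 155.5 CPM (median 120.5). The TfhA_4e4 range was apart from all others. The log2 fold change was -1.41 against Tfh2_4e4 (SE 0.128, edgeR adjusted p = 1.99e-12, 5 of 5 libraries lower) and -1.61 against Tfh5_4e4 (SE 0.128, edgeR adjusted p = 2.68e-14). Tfh5_4e4 stood 0.20 above Tfh2_4e4 (95% interval -0.03 to 0.43), which did not pass (edgeR adjusted p = 0.434).

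Within Tfh2, Jun was highest at the lowest number. The 1e4 libraries ran from 136.4 to 155.8 CPM with a median of 142.8, and the 6e4 libraries from 81.73 to 110.5 CPM with a median of 88.9, without overlap. At 2e4 the libraries held 141.4, 135.4, 107.1, 125.5 and 81.13 CPM, the last of them in the library that stood apart. Jun fell with each doubling by 0.23 (SE 0.041, edgeR adjusted p = 9.76e-06) and by 0.64 from 1e4 to 6e4 (edgeR adjusted p = 1.07e-05), with no single step passing. In the order of levels only the lowest pair passed, TfhA_4e4 under Tfh2_6e4 (1.16, edgeR adjusted p = 3.13e-10).

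Jund, another gene of the JUN family, went the other way in TfhA_4e4. Libraries held 112, 108.6, 127.5, 94.77 and 102.3 CPM there, 75.22, 71.73, 93.46, 70.26, 82.86 and 79.54 CPM in Tfh2_4e4, and 73.26 to 84.71 CPM in Tfh5_4e4 (median 76.5). TfhA_4e4 lay above both, although the gap to the highest Tfh2_4e4 library, the one that stood apart, was narrow. The difference was 0.47 against Tfh2_4e4 (SE 0.103, edgeR adjusted p = 0.000311, 5 of 5 libraries higher) and 0.48 against Tfh5_4e4 (edgeR adjusted p = 0.000179). The Tfh2 groups ran from 65.21 to 101.2 CPM at 1e4 (median 83.7), 79.64 to 101.3 at 2e4 (median 84.5) and 71.72 to 80.23 at 6e4 (median 72.7) and overlapped. Their slope was -0.06 (95% interval -0.13 to 0.01, edgeR adjusted p = 0.161), and it passed at -0.09 without Tfh2_1e4 replicate 1 (edgeR adjusted p = 0.0332). Among neighbours in the order of levels only TfhA_4e4 over Tfh2_2e4 passed (0.31, edgeR adjusted p = 0.0247).

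Fosl2 rose with each Tfh2 number and was low in TfhA_4e4. The 1e4 libraries held 63.11 to 73.77 CPM (median 68.4), the 2e4 libraries 75.94, 101.4, 111.7, 130 and 112.7 CPM, the 4e4 libraries 132.1, 226.3, 175.1, 216.1, 245.5 and 225.3 CPM and the 6e4 libraries 236.8 to 309.8 CPM (median 282.7). The first 3 of these ranges did not overlap, and the last pair overlapped by a single library, replicate 5 of Tfh2_4e4. The slope was 0.80 per doubling (SE 0.046, edgeR adjusted p = 4.04e-19), and 6e4 stood 2.02 above 1e4. The steps were 0.63 (edgeR adjusted p = 0.00084), 0.94 (edgeR adjusted p = 6.58e-07) and 0.46 (edgeR adjusted p = 0.0367). The last step did not pass without the libraries that stood apart (0.43, edgeR adjusted p = 0.107), nor without any of Tfh2_4e4 replicates 1 and 3 and Tfh2_6e4 replicates 2, 5 and 6, with 0.36 to 0.46 (edgeR adjusted p = 0.0572 to 0.118).

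TfhA_4e4 libraries held 77.58, 99.47, 103.6, 97.64 and 110.5 CPM of Fosl2, all below those of Tfh2_4e4 and of Tfh5_4e4 (129.9 to 202.1 CPM, median 163.9). The log2 fold change was -1.06 against Tfh2_4e4 (SE 0.130, edgeR adjusted p = 7.15e-09) and -0.76 against Tfh5_4e4 (SE 0.129, edgeR adjusted p = 4.7e-06). The level in TfhA_4e4 was above that of Tfh2_1e4 (0.50, edgeR adjusted p = 0.00132) and below that of Tfh2_2e4 by a difference that did not pass (-0.12, edgeR adjusted p = 0.537). Tfh5_4e4 stood at -0.30 to Tfh2_4e4 (95% interval -0.54 to -0.05 before adjustment), which did not pass over all genes (edgeR adjusted p = 0.205) but did without Tfh2_4e4 replicate 1 (-0.41, edgeR adjusted p = 0.0306).

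Bhlhe40 varied more within groups than between them. Tfh2_4e4 libraries held 52.74, 111.9, 68.83, 152.5, 88.34 and 98.41 CPM, which covers the ranges of TfhA_4e4 (69.23, 99.47, 103.6, 100.3 and 81.11 CPM), Tfh5_4e4 (72.37 to 104 CPM, median 88.5), Tfh2_1e4 (68.84 to 83.92, median 73.7), Tfh2_2e4 (57.69 to 111.9, median 88.4) and Tfh2_6e4 (79.18 to 135.7, median 93.9). The spread was 36.7% of the mean in Tfh2_4e4 where counting alone gives 3.95%, and 8.82% in Tfh2_1e4 where counting gives 3.72%. TfhA_4e4 against Tfh2_4e4 gave -0.07 (95% interval -0.42 to 0.27, edgeR adjusted p = 0.787) and Tfh5_4e4 against Tfh2_4e4 -0.10 (-0.43 to 0.23, edgeR adjusted p = 0.85). The slope within Tfh2 passed at 0.16 per doubling (SE 0.059, edgeR adjusted p = 0.0186), with means of 75.6, 87.9, 95.5 and 102.5 CPM. It did not pass without Tfh2_1e4 replicate 5 (0.14, edgeR adjusted p = 0.0516) or Tfh2_6e4 replicate 3 (0.12, edgeR adjusted p = 0.085). The difference of 6e4 to 1e4 (0.44, edgeR adjusted p = 0.0257) lost its call without any of Tfh2_1e4 replicates 2, 3 and 5 and Tfh2_6e4 replicates 3 and 4 (0.32 to 0.40, edgeR adjusted p = 0.0578 to 0.123). No neighbouring pair in the order of levels passed.

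Nfil3 spanned the widest range of the 7 genes. The Tfh2_1e4 libraries held 13.84 to 18.07 CPM (median 15.1), the Tfh2_2e4 libraries 26.69, 40.12, 26.03, 40.3 and 30.14 CPM, the Tfh2_4e4 libraries 99.95, 87.22, 81.97, 65.64, 85.44 and 76.47 CPM and the Tfh2_6e4 libraries 91.8 to 129.4 CPM (median 112.4). Overlap was seen between the highest pair of groups and in no other pair of Tfh2 groups. The rise was 1.14 per doubling (SE 0.046, edgeR adjusted p = 1.75e-24), or 2.85 from 1e4 to 6e4 (SE 0.124, edgeR adjusted p = 5.25e-23). The steps were 1.08 (edgeR adjusted p = 2.81e-08), 1.34 (edgeR adjusted p = 1.34e-10) and 0.42 (edgeR adjusted p = 0.0423). Without the libraries that stood apart the last step was 0.43 and did not pass (edgeR adjusted p = 0.0804). Leaving out any 1 of Tfh2_4e4 replicates 2, 3, 4, 5 and 6, Tfh2_6e4 replicates 1, 2, 5 and 6 and TfhA_4e4 replicate 6 also ended that call (0.37 to 0.44, edgeR adjusted p = 0.051 to 0.114).

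The codes at 4e4 differed in Nfil3 in another way than in the other genes. Tfh5_4e4 libraries held 44.08 to 52.03 CPM (median 49.2), below every library of Tfh2_4e4 and of TfhA_4e4 (101.7, 72.11, 81.89, 75.6 and 77.58 CPM). The log2 fold change of Tfh5_4e4 to Tfh2_4e4 was -0.77 (SE 0.115, edgeR adjusted p = 2.69e-05, 6 of 6 libraries), and TfhA_4e4 stood 0.75 above Tfh5_4e4 (SE 0.121, edgeR adjusted p = 1.64e-06). TfhA_4e4 and Tfh2_4e4 differed by -0.02, with a 95% interval of -0.26 to 0.22 (edgeR adjusted p = 0.935). From low to high the order was Tfh2_1e4, Tfh2_2e4, Tfh5_4e4, TfhA_4e4, Tfh2_4e4 and Tfh2_6e4, and only the pair of TfhA_4e4 and Tfh2_4e4 did not pass.

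Over the Tfh2 numbers, 4 of the 7 genes rose per doubling (Nfil3, Fosl2, Irf4 and Bhlhe40) and 2 fell (Jun and Batf), where 46.9% of all tested genes passed, 24.1% up and 22.8% down. From 1e4 to 6e4 the same test called 4 higher and 1 lower, against 43% of all genes, 22.3% up and 20.7% down. The T cell markers moved along the numbers too, with 5 of 8 higher and 1 lower at 6e4 than at 1e4 and a median of 0.41, against 0.44 for the 7 genes and -0.01 for all tested genes. Their part in the members' rise was not tested. Of the steps, that from 1e4 to 2e4 called 3 genes higher, where 5.26% of all genes passed and 4.06% did so upward. The step from 2e4 to 4e4 called 3 higher and 1 lower, where 13% of all genes passed, 7.59% up and 5.4% down. The step from 4e4 to 6e4 called 2 higher, where 1.48% of all genes passed, 0.616% up. With only the groups of the comparison in the fit, neither step of Irf4 passed (edgeR adjusted p = 0.0846 and 0.162), nor did the last step of Fosl2 (0.0751) or Nfil3 (0.0928). With no filter on low counts both steps of Irf4 (0.33, edgeR adjusted p = 0.0589, and 0.28, edgeR adjusted p = 0.0893) and the last step of Nfil3 (0.42, edgeR adjusted p = 0.0501) also fell short. The second doubling, from 2e4 to 4e4, differed from the first in 0 of the 7 genes in edgeR's test (0.106% of all genes passed), and in 0 by DESeq2 and limma-voom. At an unadjusted p under 0.05 this held for Batf alone, with a difference of -0.65 (95% interval -1.18 to -0.11).

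**Figure D3:**
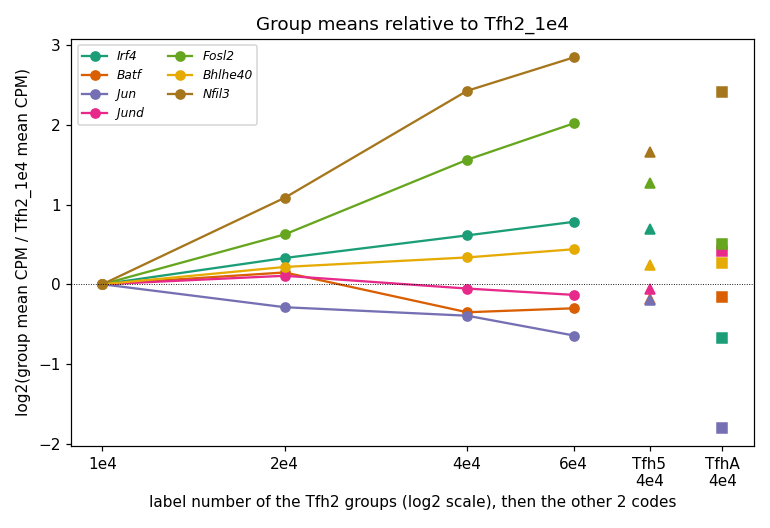
Group means of the 7 genes as log2 ratio to the Tfh2_1e4 mean (y axis) over the number of the Tfh2 groups on a log2 scale (x axis, circles joined by lines), followed by Tfh5_4e4 (triangles) and TfhA_4e4 (squares). Nfil3 and Fosl2 rise over the whole range and Jun falls, and in TfhA_4e4 Jun and Irf4 lie under their Tfh2_1e4 means while Nfil3 stands near its Tfh2_4e4 mean (81.8 and 82.8 CPM).

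Each of these factors competes or pairs with relatives, so the share of a gene in the summed counts of its family was compared over libraries with two-sided exact permutation tests, 20 in all. With 5 or 6 libraries a group, the smallest p such a test can give is 0.002165, which is 0.00394 after Benjamini and Hochberg adjustment. In TfhA_4e4 the share of Jun among JUN family counts was lower and that of Jund higher. Jun made up 9.18% of Jun, Junb and Jund counts there against 18.1% in Tfh2_4e4 (exact permutation adjusted p = 0.0133, with overlap of the groups), and Jund 23.9% against 12.9% (exact permutation adjusted p = 0.00394, no overlap). Junb, a JUN family member used in TH17 cells, held the largest part in every group. Its level was 439 ± 114 CPM (n = 6) in Tfh2_4e4 and 316 ± 83.5 CPM (n = 5) in TfhA_4e4, a fall by 0.47 (edgeR adjusted p = 0.0149) that did not pass without Tfh2_4e4 replicate 2 or TfhA_4e4 replicate 1 (-0.39 and -0.36) or with the mitochondrial rRNA share as a covariate (-0.12, edgeR adjusted p = 0.742). From 1e4 to 6e4 in Tfh2 the share of Jun went from 27.6% to 14.3% (exact permutation adjusted p = 0.00394) and that of Jund from 15.6% to 11.5% (exact permutation adjusted p = 0.00722). Between these ends the level of Junb rose by 0.72 (edgeR adjusted p = 7.82e-05), and that of Jund did not pass (-0.13, edgeR adjusted p = 0.282). The lower share of Jund alone thus does not show a lower level of Jund. The 95% interval of its level difference was -0.33 to 0.06, with 6 of 6 Tfh2_6e4 libraries below the Tfh2_1e4 mean.

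The BATF family differed mainly in Batf3, which encodes a smaller relative best known from dendritic cells and also made in T cells. TfhA_4e4 libraries held 68.43, 60.72, 62, 79.91 and 83.93 CPM of Batf3, and those of Tfh2_4e4 5.879, 16.47, 18.18, 16.11, 12.9 and 15.36 CPM. The groups did not overlap, and in 5 of 5 TfhA_4e4 libraries Batf3 had more counts than Batf, as it did in 1 of 6 Tfh2_6e4 libraries and in none of the other groups. Batf3 was higher in TfhA_4e4 by 2.31 (SE 0.264, edgeR adjusted p = 1.07e-09) and rose by 0.94 per doubling in Tfh2 (SE 0.102, edgeR adjusted p = 1.5e-10), from 3.96 ± 1.44 to 22.1 ± 8.37 CPM. Batf made up 28.8% of the counts of Batf, Batf2 and Batf3 in TfhA_4e4 and 63.9% in Tfh2_4e4 (exact permutation adjusted p = 0.00394), and its share went from 89.0% at 1e4 over 81.8% and 63.9% to 54.8% at 6e4 (exact permutation adjusted p = 0.00394 for the ends). Of 5 dendritic cell markers, Siglech and Clec9a were at 0 in all libraries, and Flt3 and Itgax had 11 and 63 counts over all libraries. Xcr1 had 1068 counts, in 31 of 34 libraries, and alone passed the filter. It was lower in TfhA_4e4 than in Tfh2_4e4 (-4.44). The summed level of the 5 genes was 0 to 1.658 CPM in TfhA_4e4 and 2.55 to 9.614 CPM in the other groups, and rests mostly on Xcr1.

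Of the other AP-1 subunits 4 of 7 passed the filter, and in TfhA_4e4 Batf3 was higher and Junb and Jdp2 (-1.12, edgeR adjusted p = 0.000791) were lower, where 32.8% of all genes passed. Among the 9 IRF genes Irf4 held 39.4% of the counts in TfhA_4e4, 55.3% in Tfh2_4e4 (exact permutation adjusted p = 0.00394) and 56.0% in Tfh5_4e4. Within Tfh2 its share went from 46.5% at 1e4 to 58.7% at 6e4 (exact permutation adjusted p = 0.00394). Irf8, a close relative that shares partners with IRF4, was lower in TfhA_4e4 as well, at 43.4 ± 11.3 CPM against 152 ± 19.0 CPM in Tfh2_4e4 (log2 fold change -1.81, edgeR adjusted p = 1.14e-14), and Irf1, an interferon-induced member, was higher, at 48.9 ± 5.25 against 25.3 ± 5.27 CPM (0.95, edgeR adjusted p = 1.8e-06). Fosl2 was nearly the only FOS family gene counted, with 95.8% to 99.7% of the counts of Fos, Fosb, Fosl1 and Fosl2 by group. In TfhA_4e4 that share was 97.8% and in Tfh2_4e4 99.1%, which did not pass (exact permutation adjusted p = 0.0618). None of the 5 shares differed between Tfh5_4e4 and Tfh2_4e4 by this test (exact permutation adjusted p = 0.571 to 0.922).

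**Figure D4:**
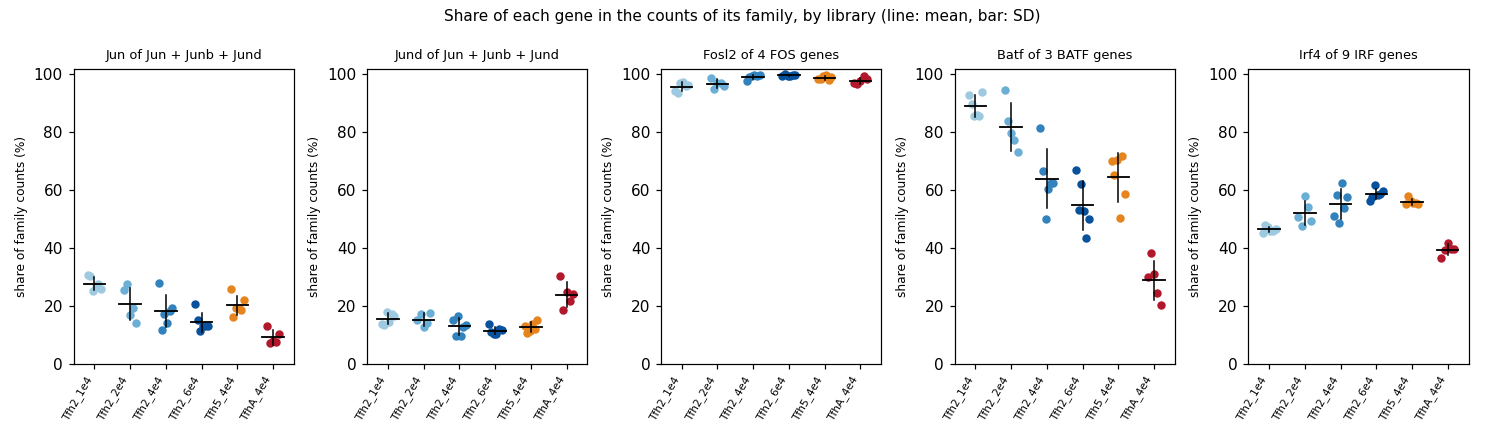
Share of Jun, Jund, Fosl2, Batf and Irf4 (panels) in the counts of their family (y axis, percent from 0) by library and group (x axis), with the group mean as a line and the SD as a bar. In TfhA_4e4 the mean share of Batf is 28.8% and that of Jund 23.9%, and the share of Fosl2 is at least 93.6% in every library.

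Other genes of the pathway were taken from lists of family members, signalling genes, regulators and targets. T cell receptor signalling genes that lead to AP-1 and NFAT had 5 of 23 members higher and 8 lower in TfhA_4e4 against Tfh2_4e4, where 32.8% of all tested genes passed, 15.5% higher and 17.4% lower. The median was -0.21 against -0.01 over all tested genes. Rasgrp1, which activates RAS after receptor signals, stood at 2.00 (8.78 ± 3.41 to 35.3 ± 4.52 CPM, edgeR adjusted p = 1.14e-10), the NF-kappa-B subunit gene Rel at 1.57 and Mapk9, which encodes the JUN kinase JNK2, at -1.30. Along the Tfh2 numbers 4 of the 23 rose and 10 fell, where 46.9% of all genes passed, 24.1% up and 22.8% down (median -0.09 against -0.0028 for all genes), among them the NFAT gene Nfatc1 (-0.65, from 95.6 ± 3.55 CPM at 1e4 to 30.2 ± 5.69 at 6e4, edgeR adjusted p = 2.03e-14) and the adaptor gene Lcp2 (-0.51), while Mapk9 rose by 0.42.

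Genes for regulators of the 7 proteins, mostly parts of ubiquitin ligases or their antagonists, had 1 of 11 members higher and 3 lower in TfhA_4e4, a share near the 32.8% of all tested genes. Trib1, a scaffold of the COP1 ligase, was at 1.07, Usp28 at -1.75 and Det1 at -0.94 (edgeR adjusted p = 0.00266, and 0.15 with the mitochondrial rRNA share as a covariate). Along the Tfh2 numbers 6 of the 11 rose and 1 fell (46.9% of all genes passed, 24.1% up), with Fbxw7, the ligase subunit that marks JUN for breakdown, at 0.27 per doubling (46.9 ± 6.62 to 73.2 ± 7.39 CPM, edgeR adjusted p = 4.37e-07), and Swap70, whose protein is related to the IRF4-binding protein DEF6, at 0.44.

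Of the ATF and CREB factors, 3 of 12 tested were higher in TfhA_4e4 and 0 lower, where 32.8% of all tested genes passed, 15.5% higher and 17.4% lower. Atf5 stood at 1.84 (edgeR adjusted p = 1.24e-05) and the amino acid stress factor gene Atf4 was higher as well, from 4.90 ± 2.71 to 9.89 ± 3.45 CPM. The Atf4 call (edgeR adjusted p = 0.0248) ended with the mitochondrial rRNA share as a covariate (0.12) and without Tfh2_4e4 replicates 1 or 4 or TfhA_4e4 replicate 6 (0.81 to 0.92). Among other leucine zipper factors of the BACH, MAF, CNC and C/EBP families, 3 of 12 were higher and 4 lower, against 15.5% and 17.4% of all genes. Bach2, a repressor that competes with AP-1 at its sites, was lower by -1.38 (362 ± 18.6 to 139 ± 15.6 CPM, edgeR adjusted p = 3.95e-17) and the stress gene Ddit3 higher by 1.95. In Tfh2, Crem, a cyclic AMP responsive factor gene, rose by 0.64 per doubling (edgeR adjusted p = 7.81e-12), with 3 of 12 ATF and CREB genes rising and 2 falling, near the 46.9% of all genes that passed. Of the 70 genes in the lists of other AP-1 subunits, ATF and CREB, BACH to C/EBP and IRF factors, receptor signalling and regulators, 0 passed in edgeR between Tfh5_4e4 and Tfh2_4e4. At an unadjusted p under 0.05 there were 10, and DESeq2 called 2 of them and limma-voom 0.

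Clock genes and leucine zipper factors of the PAR family, which share sites with NFIL3, had 7 of 13 members rising and 1 falling with the Tfh2 number (median 0.39 against -0.0028 for all genes), where 24.1% of all genes rose and 22.8% fell. Per1 rose by 0.53 per doubling (12.4 ± 2.22 to 31.4 ± 5.05 CPM, edgeR adjusted p = 9.68e-12) and Tef by 0.61. In TfhA_4e4 1 of 13 was higher and 4 lower, near the 32.8% of all genes that passed, among them Nr1d1 and Nr1d2, which encode clock repressors, at -3.35 (5.69 ± 2.49 to 0.504 ± 0.399 CPM, edgeR adjusted p = 1.24e-07) and -1.32. Per1 was the gene of this list that was lower in Tfh5_4e4 (-0.54, edgeR adjusted p = 0.0231), and that call ended without any of Tfh2_4e4 replicates 2 and 3 and Tfh5_4e4 replicates 3, 4 and 5 (-0.48 to -0.52).

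Genes known as targets of BATF and IRF4 in T cells had 3 of 14 tested members higher and 11 lower in TfhA_4e4, where 15.5% of all genes were higher and 17.4% lower, with a median of -2.08 against -0.01 for all genes. Il17a, the TH17 cytokine gene, was lower by -6.68, whereas Icos rose from 82.2 ± 19.7 to 240 ± 29.3 CPM, as did the IL-23 receptor gene Il23r, from 6.64 ± 2.43 to 21.3 ± 5.39 CPM. Along the Tfh2 numbers 7 of 14 rose and 4 fell (median 0.10 against -0.0028), where 46.9% of all genes passed, with the chemokine receptor gene Ccr6 at -0.76 and Il17a at -0.70 per doubling. Between Tfh5_4e4 and Tfh2_4e4 2 of 14 were lower, Il23r (-1.35) and Icos (-0.98), where 3.11% of all genes passed and 1.7% were lower. Of 10 genes related to BHLHE40 and NFIL3, 5 passed the filter. In TfhA_4e4 2 of the 5 were higher and 2 lower than in Tfh2_4e4, where 32.8% of all genes passed. Along the Tfh2 numbers 2 rose and 2 fell (46.9%), and in Tfh5_4e4 1 was higher and 1 lower (3.11%). The higher gene, Tox (0.58, edgeR adjusted p = 0.02075), lost its call with only the compared groups in the fit (0.59, edgeR adjusted p = 0.05035). That call also ended without Tfh2_4e4 replicate 5 (0.50, edgeR adjusted p = 0.0839) or Tfh5_4e4 replicate 6 (0.49, edgeR adjusted p = 0.0813). Il10, which is in both lists, was at -9.74 in TfhA_4e4 (edgeR adjusted p = 3.75e-23). Per Tfh2 doubling Il10 was at 0.66 and Tox at -0.81. Id2, a known target of NFIL3 in innate lymphocytes, was lower than in Tfh2_4e4 in Tfh5_4e4 (-0.77, edgeR adjusted p = 9.78e-08) and in TfhA_4e4 (-0.78, edgeR adjusted p = 1.51e-09) and rose by 0.17 per Tfh2 doubling (edgeR adjusted p = 8.64e-06). The 3 groups held 400 ± 37.0, 396 ± 16.9 and 680 ± 39.8 CPM of it. These lists were put together with earlier results of these data known, and their counts are no independent support for a direction.

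The genes whose log2 levels were most like those of a member over the 34 libraries were found among 6546 genes whose mean log2 CPM was 3 or more. These correlations describe 34 libraries that fall into the same 6 groups, so differences between groups enter them. For Irf4 they were Gna13 (Pearson r = 0.972), Igf1r (0.964) and Igfbp4 (0.963). For Jun they were Aplp2 (0.971), Ppp1r16b (0.956) and Atxn10 (0.953), for Fosl2 Tgfb3 (0.959), Tspan13 (0.959) and Tiparp (0.958), and for Nfil3 Espn (0.974), Tcf25 (0.972) and Hilpda (0.972). The highest values were lower for Jund (Ptpn1, 0.844), Bhlhe40 (Cept1, 0.877) and Batf (Apobec3, 0.704). With Spearman's rho in place of Pearson's r, 8 of the 21 genes named by this rule were again among the first 3 of their member, so the choice of names depends on the measure.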

How the data were processed

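The authors deposited whole-number counts per gene and library, which were used unchanged. A further deposited table holds identical counts for every library and was left aside. STAR 2.7.2b, featureCounts 1.6.4 and the build mm10 appear, with no role given, in the submitters' processing notes. Whether counting used strand, and how reads with several placements were treated, is not given in the sources used here. Symbols were found for 25275 of 27179 identifiers, and the 1904 others held 48.77% of all counts.

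One edgeR model (version 4.0.16, R 4.3.3) covered the 34 libraries with 1 mean per group, after TMM normalization and filterByExpr by group, which kept 11357 genes. Tests were two-sided quasi-likelihood F-tests. P-values were adjusted over all tested genes (Benjamini and Hochberg), with a threshold of 0.05. Differences are in log2 units, and a slope is fitted through the 4 Tfh2 group means against the log2 number. A prior count of 1 entered the log2 CPM values behind the likeness of genes. The fit was also run on counts simulated with known changes and no links between libraries, which checks the calculation and not the design. Counting error is the inverse square root of a count and covers counting only. The labels do not say whether replicates are separate animals or cultures, so the spread behind each p-value may be technical.

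Same-numbered libraries of different groups formed 80 pairs, of which 15 had a correlation over 0.1 once group means were removed. Averaged over pairs, r came to 0.049 where replicate numbers matched. It came to 0.029 where numbers differed within a range (1 to 3 or 4 to 6), and to -0.035 between the ranges. By mean r, 15 of 34 libraries stood closest to those of their own number. Whether same-numbered libraries share an origin was not tested. The main fit left samples unpaired, and calls with a replicate block are given below. Alternatives were RLE size factors, DESeq2 1.42.0, limma-voom (limma 3.58.1), no filter, only the compared groups, a replicate block, the replicate range (1 to 3 against 4 to 6), the mitochondrial rRNA share, library totals without the 2 largest identifiers that lack a symbol, and libraries left out. Other genes are named by rule: up to 3 per list and comparison, those with the largest change among genes that passed at a mean log2 CPM of 1 or more, and the 3 genes most like each member. Not every gene that the rule gives is named. Icos and Il23r as rises in TfhA_4e4 were chosen after their values were seen. The members and lists were chosen with earlier results of these data known.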

Additional observations from a re-analysis of the deposited data

Results flagged for a closer look

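A single library lay far from the others of its group in 5 of 72 sets of libraries checked (42 of levels and 30 of family shares), where chance alone gives about 1 in 20. Batf in Tfh2_2e4 replicate 1 was at 44.16 CPM against 30.77 to 33.94 CPM in the other 4 libraries. Jun in Tfh5_4e4 replicate 1 was at 155.5 CPM against 115 to 129.1 CPM, and Nfil3 in Tfh2_1e4 replicate 5 at 18.07 CPM against 13.84 to 15.37 CPM. The share of Fosl2 among FOS family counts in Tfh2_4e4 replicate 1 was 97.57% against 99.25% to 99.66%. The share of Irf4 among IRF counts in Tfh5_4e4 replicate 2 was 57.94% against 55.22% to 56.2%. The Tfh2_4e4 library named here is also the one without which the difference of Fosl2 between Tfh5_4e4 and Tfh2_4e4 passed.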

How the results depend on the processing

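Over 10 settings and 34 fits that each left out 1 library, 2680 of 2772 member values kept their direction and their side of the threshold, 50 fell short of it, 5 newly passed and 37 changed sign. The calls of Irf4, Jun, Jund and Fosl2 between TfhA_4e4 and Tfh2_4e4 held in all 44. The cause of the changes below was not tested. The replicate block called 582 genes between Tfh5_4e4 and Tfh2_4e4 (353 without it), 381 for 6e4 against 4e4 (168), 44 for unequal doublings (12), and a Bhlhe40 difference of TfhA_4e4 to Tfh2_4e4 of 0.0068. Among the members the block newly passed Batf for 6e4 against 1e4 (-0.31, edgeR adjusted p = 0.0325) and ended no call. For 6e4 against 4e4, 278 genes were called by DESeq2, 303 with the replicate range, 74 in the fit of those groups alone and 90 without the 2 libraries that stood apart. Of the 2 members called there, 1 passed with no filter and 0 in those last 2 fits. Genes with unequal doublings numbered 29 with DESeq2, 33 with no filter, 1 in the groups alone, 23 with the replicate range and 6 without the 2 libraries.

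Small differences crossed 0. Nfil3 between TfhA_4e4 and Tfh2_4e4 was 0.011 with RLE and 0.0112 with DESeq2, and Bhlhe40 was 0.074 with the rRNA share. Without the 2 libraries 2 members passed from 2e4 to 4e4 in place of 4, Jund between Tfh5_4e4 and Tfh2_4e4 was 0.0513, Batf for 6e4 against 4e4 -0.0193, and the difference between doublings -0.0187 for Jun and 0.0458 for Bhlhe40.

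With 1 library left out, Bhlhe40 ran from -0.1924 to 0.1054 for TfhA_4e4 against Tfh2_4e4, -0.2352 to 0.0903 for Tfh5_4e4 against Tfh2_4e4, -0.036 to 0.1195 for TfhA_4e4 against Tfh5_4e4, -0.0831 to 0.2322 for 4e4 against 2e4, -0.016 to 0.2925 for 6e4 against 4e4 and -0.3346 to 0.0951 between doublings. Nfil3 ran from -0.118 to 0.0456 for TfhA_4e4 against Tfh2_4e4, Jund from -0.0413 to 0.0256 for Tfh5_4e4 against Tfh2_4e4, and Batf from -0.1113 to 0.1259 for TfhA_4e4 against Tfh5_4e4 and -0.0259 to 0.1509 for 6e4 against 4e4. Between doublings Irf4 ran from -0.2007 to 0.0208 and Jun from -0.0517 to 0.3329. Members called were 1 to 2 for Tfh5_4e4 against Tfh2_4e4, 2 to 4 for 4e4 against 2e4 and 0 to 2 for 6e4 against 4e4. Genes called were 55 (without Tfh2_6e4 replicate 5) to 269 (without Tfh2_4e4 replicate 4) for 6e4 against 4e4 and 4 (without Tfh2_2e4 replicate 4) to 40 (without Tfh2_4e4 replicate 3) between doublings. Between Tfh5_4e4 and Tfh2_4e4 the family share of Jund differed by -0.9815 to 0.4068 percentage points, of Batf by -2.271 to 4.013 and of Irf4 by -0.6542 to 2.122. That of Fosl2 differed by -1.712 to -1.04 for TfhA_4e4 against Tfh2_4e4 and -1.437 to -0.7646 against Tfh5_4e4.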

Other observations

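Cept1, a phospholipid synthesis gene, was the gene most like Bhlhe40 over the 34 libraries (Pearson r = 0.877), while Bhlhe40 did not pass the test over all 6 groups. Within Tfh2_4e4 the lowest library for Bhlhe40, replicate 1 (52.74 CPM), was also the lowest for Fosl2 (132.1 CPM) and Batf3 (5.879 CPM) and the highest for Jun (138.3 CPM) and Nfil3 (99.95 CPM).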
